A study of Mus musculus with 5 samples.

Results

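Integrins are adhesion receptors made of 1 α and 1 β subunit, and 10 subunit genes that lung leukocytes use were followed here through bleomycin injury. They are the α subunit genes Itgam, Itgax, Itgal, Itga4, Itgae and Itgav and the β subunit genes Itgb1, Itgb2, Itgb5 and Itgb7, chosen by gene symbol among 28626 symbols counted. The cells came from lungs of Ms4a3-CreER;R26-tdT mice, in which tamoxifen given by gavage turns on the tdT reporter in cells that use the Ms4a3 gene, a gene of granulocyte-monocyte progenitors. The study as a whole used adult mice of both sexes, from 7 weeks of age, on a mixed C57BL6/129 background. The sex of the animals in a library is not given in the sources used here. There were 5 libraries, 1 of sham lungs that received PBS and the others of lungs taken on days 3, 7, 14 and 28 after intratracheal bleomycin, an agent that injures the lung epithelium and leaves fibrosis. How many animals went into a library is not given in the sources used here. With 1 library per time point there are no replicates of a time point, so that differences between time points carry intervals for counting error only and were not tested. Differences between cell classes were tested across libraries.

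The β2 integrins pair Itgb2 with an α subunit that only leukocytes use. Itgal gives LFA-1, a receptor for ICAMs in firm adhesion, Itgam gives CD11b/CD18 (Mac-1), a receptor for the complement fragment iC3b and fibrinogen, and Itgax gives CD11c/CD18, whose α chain is a common marker of AMs and dendritic cells (DCs). Itga4 pairs with Itgb1 into a receptor for VCAM-1 and fibronectin, or with Itgb7 into the gut homing receptor for MAdCAM-1. Itgae pairs with Itgb7 and binds E-cadherin on epithelial cells, and Itgav pairs with Itgb1, Itgb5 and other β subunits into receptors for RGD-containing proteins such as vitronectin, fibronectin and latent TGF-β.

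Itgam, Itgax and Itgal lie on mouse chromosome 7 on the forward strand, and Itgam and Itgax are neighbours (GENCODE annotation of GRCm38). Itgal spans 127296260 to 127335138, Itgam 128062640 to 128118491, and Itgax 128129547 to 128150657. Itga4 (79255426 to 79333123) and Itgav (83724397 to 83806916) lie on chromosome 2, Itgae on chromosome 11 (73090583 to 73147446), Itgb1 on 8 (128685654 to 128733200), Itgb2 on 10 (77530252 to 77565708) and Itgb5 on 16 (33829665 to 33949338), all on the forward strand, and Itgb7 lies on 15 (102215995 to 102231944) on the reverse strand. The promoters of this neighbouring pair are shown because at day 14 and day 28 Itgam lay below and Itgax above the sham level in C1q macrophages. They cover 250 bases before and 50 after the start in RefSeq (GRCm38.p6, chr7:128062390-128062689 for Itgam and chr7:128129300-128129599 for Itgax, forward strand), and 7 of the 10 genes had an entry. Capitals mark GAGGAA, the core of purine-rich ETS sites, and TGTGGT, the core of RUNX sites, each on either strand (TTCCTC and ACCACA in reverse).
Itgam: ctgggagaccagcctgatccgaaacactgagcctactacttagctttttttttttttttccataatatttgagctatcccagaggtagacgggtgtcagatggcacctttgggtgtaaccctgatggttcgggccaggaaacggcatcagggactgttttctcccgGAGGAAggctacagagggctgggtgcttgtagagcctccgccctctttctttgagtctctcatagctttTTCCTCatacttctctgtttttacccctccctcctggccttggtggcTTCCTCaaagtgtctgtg
Itgax: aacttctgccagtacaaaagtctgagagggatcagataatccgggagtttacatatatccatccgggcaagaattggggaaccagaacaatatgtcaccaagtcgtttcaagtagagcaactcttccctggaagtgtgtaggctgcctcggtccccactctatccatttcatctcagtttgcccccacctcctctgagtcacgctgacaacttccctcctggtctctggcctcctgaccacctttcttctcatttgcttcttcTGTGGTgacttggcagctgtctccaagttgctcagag
The Itgam window held 3 copies of GAGGAA, with first bases at -84, -15 and 33 from the start, and none of TGTGGT. The Itgax window held 1 copy of TGTGGT, at 14, and none of GAGGAA. Of 32851 promoters of this length, 28.3% held GAGGAA and 16.8% held TGTGGT. Among the other windows, Itgav held 2 copies of GAGGAA, Itgb1 and Itgb7 1 each, Itga4 1 of TGTGGT, and Itgb5 neither. A match is a run of letters and was not tested as a binding site or against the levels.

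The symbol Itgam belongs to 2 gene identifiers in the files. ENSMUSG00000030786 held 94.6% of its UMIs and ENSMUSG00000108596 the other 5.38%. The second is a transcript model of the same strand that covers 68.7% of the exon bases of the first, so that reads from the shared exons could be split or dropped in counting, and all Itgam values below are sums over both identifiers. The second identifier's share was 16.7% in neutrophils, 3.04% in classical monocytes and 4.42% in C1q macrophages.

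The libraries held 8971 to 12688 barcodes and 89769386 to 167506186 UMIs, and 44772 of 52800 barcodes passed the limits on genes, UMIs and mitochondrial share. The lowest UMI count of a day 7 barcode was 4624, against 500 to 502 in the other libraries. Pairs of libraries shared 16 to 31 barcodes among those kept. Cells were classed by how many markers of a type, none of them an integrin, had a UMI. Alveolar macrophages (AMs) needed 5 of 8 AM markers and C1q macrophages 4 of 7 (among them C1qa, C1qb and C1qc), and cells that met both gates are called dual macrophages. Cells that met the C1q and the classical monocyte gate, which holds Ly6c2, are the Ly6c2 C1q macrophages of the plots. These gates cut a range of marker counts, with 1336 of 10617 AMs and 1452 of 6371 C1q macrophages exactly at the limit. No class was given to 5001 cells, and 4448 met several other gates. The label calls the cells immune. Ptprc, which encodes the leukocyte antigen CD45, stood at 266 CPM or more in each leukocyte class of at least 100 cells, where CPM (counts per 1e6) scales a gene's UMIs to the UMI total of a class within its library. It stood at 24.8 CPM in 515 epithelial cells, 21.6 in 293 fibroblasts and 82.2 in 241 endothelial cells.

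The 10 genes divided the leukocytes in different ways. Itgal was highest in nonclassical monocytes, the patrolling monocytes of the vessel wall, with 1322 CPM in sham, 1091 at day 3, 1125 at day 14 and 1278 at day 28. No other class reached these levels, the next being NK cells with 293 to 491 CPM, and the ranges of both classes did not overlap. The same held for the leading class of Itgae, with 354 to 548 CPM in conventional DCs type 1 (cDC1) and 93.9 to 327 in gamma delta T cells. For the other members the ranges of the first and second class overlapped. Itgb2 ranged from 851 to 1258 CPM in nonclassical monocytes, 598 to 1017 in dual macrophages and 630 to 917 in AMs. It was lowest among leukocytes in mature DCs, the Ccr7-expressing migratory state, with 22.0 CPM in sham and 18.5, 27.6, 49.9 and 60.2 on days 3, 7, 14 and 28. Even the highest of these lay below the lowest Itgb2 level of B cells, 61.4 CPM, and mature DCs were also low in Itgal, at 3.14 to 12.0 CPM, and Itgb7, at 12.4 to 15.7 CPM. In contrast, Itga4 at 398 to 720 CPM and Itgb1 at 301 to 415 CPM placed mature DCs near the top of the 22 classes by median.

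**Figure D1:**
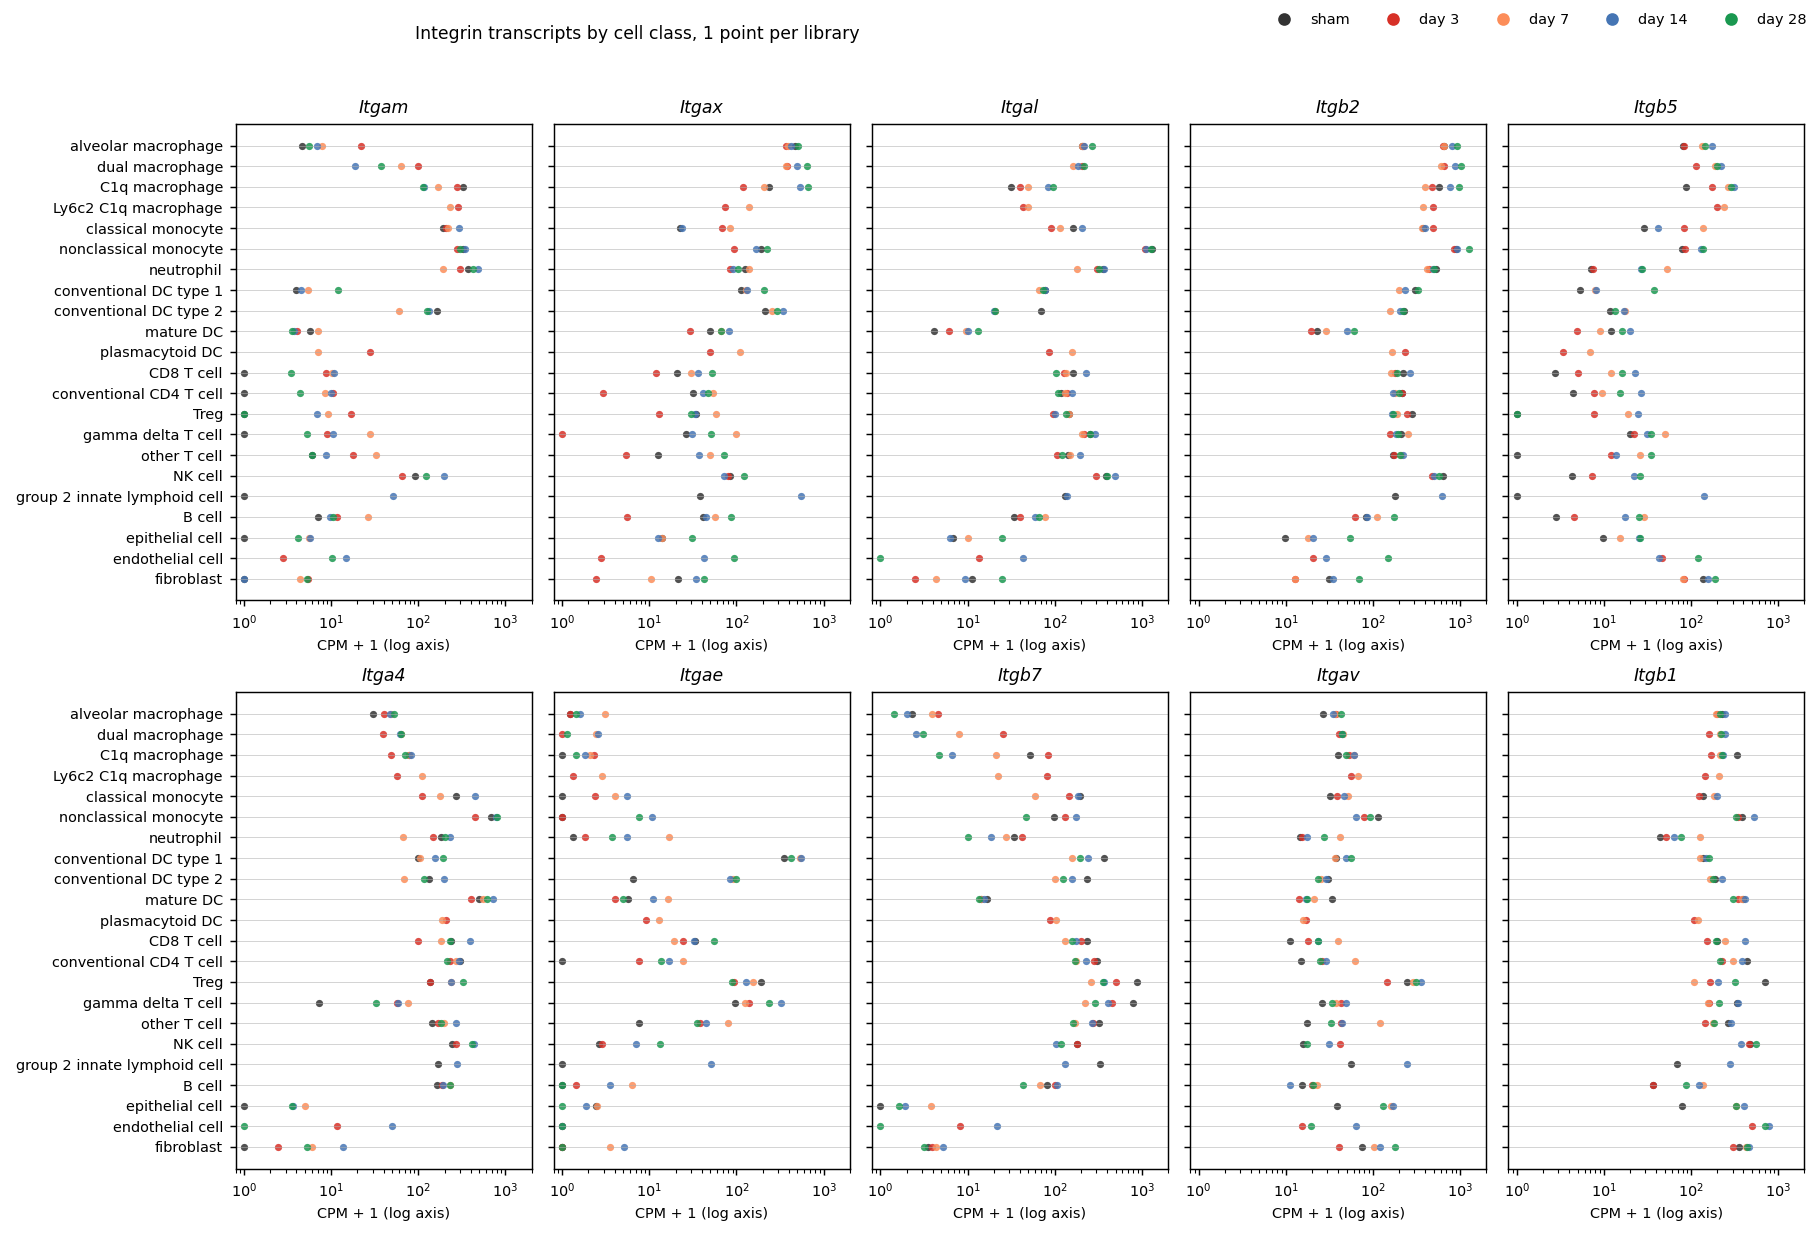
CPM + 1 on a log axis of the 10 integrin genes in 22 cell classes, each point 1 library with at least 20 cells of the class, coloured by time point. Nonclassical monocytes stand apart for Itgal (1091 to 1322 CPM), cDC1 for Itgae (354 to 548 CPM), and mature DCs lie at the low end for Itgb2 (18.5 to 60.2 CPM).

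Itgam ranged from 190 to 484 CPM in neutrophils, 274 to 346 in nonclassical monocytes, 191 to 293 in classical monocytes and 112 to 324 in C1q macrophages. In AMs it was 3.65 to 21.2 CPM, in cDC1 2.91 to 11.1 CPM and in B cells 6.0 to 25.2 CPM. Itgax ranged from 367 to 511 CPM in AMs, 119 to 661 in C1q macrophages, 212 to 341 in conventional DCs type 2 (cDC2) and 112 to 204 in cDC1. B cells, which were taken as the class without Itgam or Itgax, held 4.48 to 84.9 CPM of Itgax, with the lowest value at day 3, where all T cell classes also lay at 12.1 CPM or less. AM markers summed to 30.3 CPM in day 3 B cells and to 117 to 342 CPM in B cells of the other libraries, and the part of free RNA in these low values was not tested.

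Itgb7 was highest by median in gamma delta T cells (224 to 795 CPM) and Tregs (257 to 878 CPM), both at their lowest in the day 7 library and their highest in sham. Itgav was highest in Tregs, with 248 CPM in sham and 146, 289, 353 and 316 on days 3, 7, 14 and 28. The next classes with 3 or more libraries were epithelial cells and fibroblasts, with 38.0 to 170 and 39.8 to 179 CPM. Itgb5 was highest in C1q macrophages (86.9 to 310 CPM) and stayed at 27.8 CPM or less in B cells, CD8 T cells and conventional CD4 T cells. Itgb1 was high in endothelial cells (504 to 787 CPM) and fibroblasts (302 to 460 CPM), and epithelial cells held 77.4 to 409 CPM. Among leukocytes it was highest by median in NK cells (369 to 551 CPM), whose median lay above that of fibroblasts. Over 92 sums of class and library, the closest member pairs in log2(CPM + 10) were Itgal with Itgb2 (Pearson r = 0.79), Itgax with Itgb2 (r = 0.68), and Itgae with Itgb7 (r = 0.63). The lowest was Itgb5 with Itgb7 (r = -0.55). These sums share libraries and differ in depth, so that r is only a description.

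AMs, the macrophages of the airspace, and C1q macrophages, whose gate genes are known from interstitial macrophages, were compared in all 5 libraries. Of the 10 members, 6 passed the test, 1 higher and 5 lower in AMs, against 38.5% of all genes tested (edgeR's quasi-likelihood test with Benjamini–Hochberg adjustment over 13186 genes). The median member difference was -0.47 on the log2 scale and that of all genes -0.01. Itgam was 3.65, 21.2, 6.76, 5.94 and 4.54 CPM in AMs of sham, day 3, day 7, day 14 and day 28 and 324, 273, 168, 116 and 112 CPM in C1q macrophages. The ranges did not overlap, and the log2 difference was -4.85 (SE 0.39, adjusted p = 0.000139). Itgb7 was also lower in AMs, at 0.439 to 3.55 CPM against 3.73 to 83.3 CPM (log2 difference -3.79, SE 0.41, adjusted p = 0.000453). Itgal went the other way, at 203 to 268 CPM in AMs and 30.5 to 95.1 CPM in C1q macrophages (log2 difference 1.82, SE 0.23, adjusted p = 0.000907).

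Smaller differences were found for 3 further members, all lower in AMs. Itgb5 was 80.0 to 171 CPM in AMs and 86.9 to 310 CPM in C1q macrophages (log2 difference -0.96, SE 0.16, adjusted p = 0.00271). Itga4 was 29.1 to 51.8 against 48.1 to 82.1 CPM (log2 difference -0.84, SE 0.15, adjusted p = 0.00383). Itgav was 26.1 to 41.6 against 38.8 to 60.4 CPM (log2 difference -0.71, SE 0.11, adjusted p = 0.00207). For Itgb5, Itga4 and Itgav the ranges over libraries overlapped. Itgax did not pass, at a log2 difference of 0.44 (SE 0.34, adjusted p = 0.344), and was higher in AMs in sham, day 3 and day 7 but in C1q macrophages at day 14 and day 28. Itgb2, at 0.12 (SE 0.15, adjusted p = 0.570), and Itgb1, at -0.23 (SE 0.13, adjusted p = 0.200), did not pass either. With classes taken from clusters in place of gates, the calls of Itgav (-0.38) and Itgb5 (-0.39) were lost. Other members passed instead, so that 6 were still called, 1 higher and 5 lower in AMs. Without the library block Itgb5 (-1.05) lost its call and 5 members passed.

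**Figure D2:**
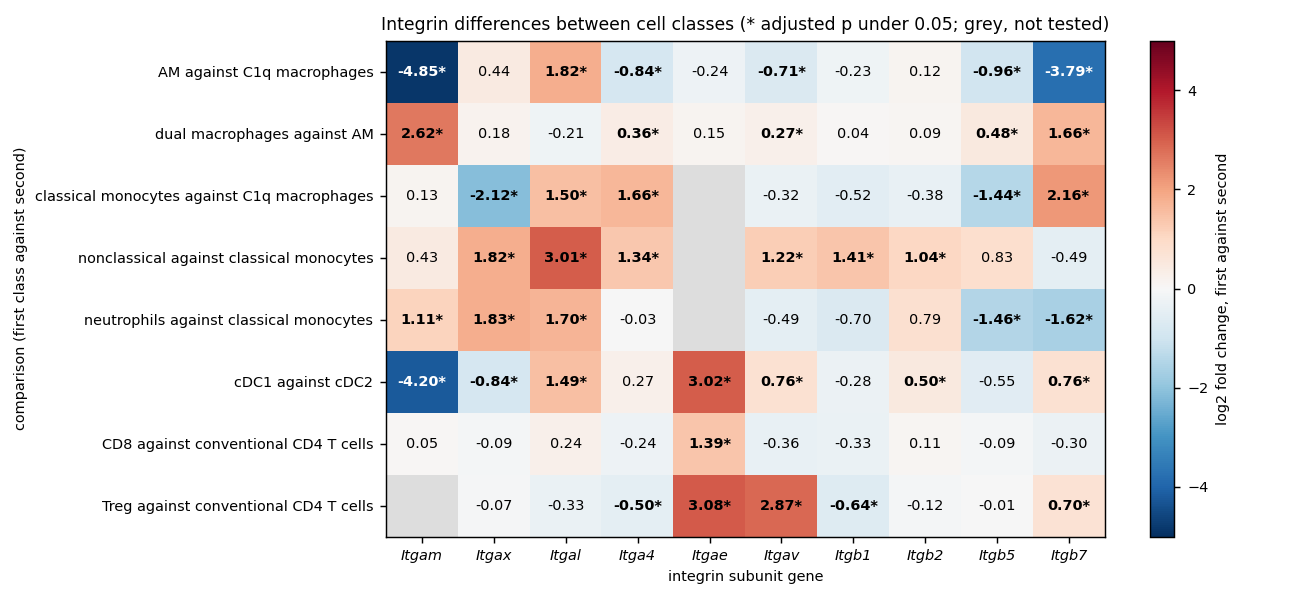
Log2 fold change of each member (columns) in the 8 comparisons of cell classes (rows, first class against second), with an asterisk where the adjusted p was under 0.05 and grey where the gene was not tested. Itgam gives the largest values among macrophages (-4.85), Itgal in nonclassical monocytes (3.01), and Itgae and Itgav in Tregs (3.08 and 2.87).

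Within C1q macrophages Itgam and Itgax were both below sham at day 3, and at day 14 and day 28 Itgam was below and Itgax above sham. Itgam went from 324 CPM in sham (95% Poisson interval 287 to 365, 60 cells) to 112 CPM at day 28 (109 to 115, 2177 cells), while Itgax went from 234 CPM in sham (202 to 269) and 119 CPM at day 3 (109 to 128) to 661 CPM at day 28 (654 to 668). Relative to sham, Itgam was 0.843, 0.519, 0.358 and 0.347 at day 3, day 7, day 14 and day 28, and Itgax 0.508, 0.875, 2.26 and 2.83. After each cell was reduced to 2000 UMIs, the share of C1q macrophages with an Itgam UMI was 42.9% in sham (exact 95% interval 29.7 to 56.8) and 30.4%, 26.2%, 16.5% and 16.9% on days 3, 7, 14 and 28. The share with an Itgax UMI was 25.0%, 14.8%, 26.5%, 55.4% and 64.9%. Itgb7 was 51.7, 83.3, 20.2, 5.63 and 3.73 CPM over the same libraries, a day 28 level 0.0722 of sham (interval 0.0517 to 0.103). Itgal, at 30.5, 39.0, 49.0, 83.7 and 95.1 CPM, and Itgb5, at 86.9, 171, 265, 310 and 285 CPM, were 3.12 times and 3.28 times the sham level at day 28. The sham values rest on 60 cells, and with 1 library per time point a time point and its library cannot be told apart.

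Counted by a rule of size, 2-fold or more where sham or the later library reached 50 CPM, 1 of 8 members differed from sham in C1q macrophages at day 3 (Itgb1, lower), against 18.6% of all genes. At day 7 it was 2 of 8 (Itgb5 higher, Itgb7 lower), against 7.95%. At day 14 it was 5 of 9, against 12.5%, and at day 28 5 of 8, against 19.2%, with Itgax, Itgal and Itgb5 higher and Itgam and Itgb7 lower on both days. With classes from clusters, the Itgb1 difference at day 3, -1.02 on the log2 scale, turned to 0.14, and the Itgax difference at day 28 went from 1.5 to 1.16. In AMs only Itgb5 passed this rule, at day 14 (171 CPM, 2.14 times sham), which was 1 of 5 members against 6.01% of all genes. None of 5 members passed at day 3 or day 7 and none of 6 at day 28, against 7.02%, 3.67% and 6.6%.

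**Figure D3:**
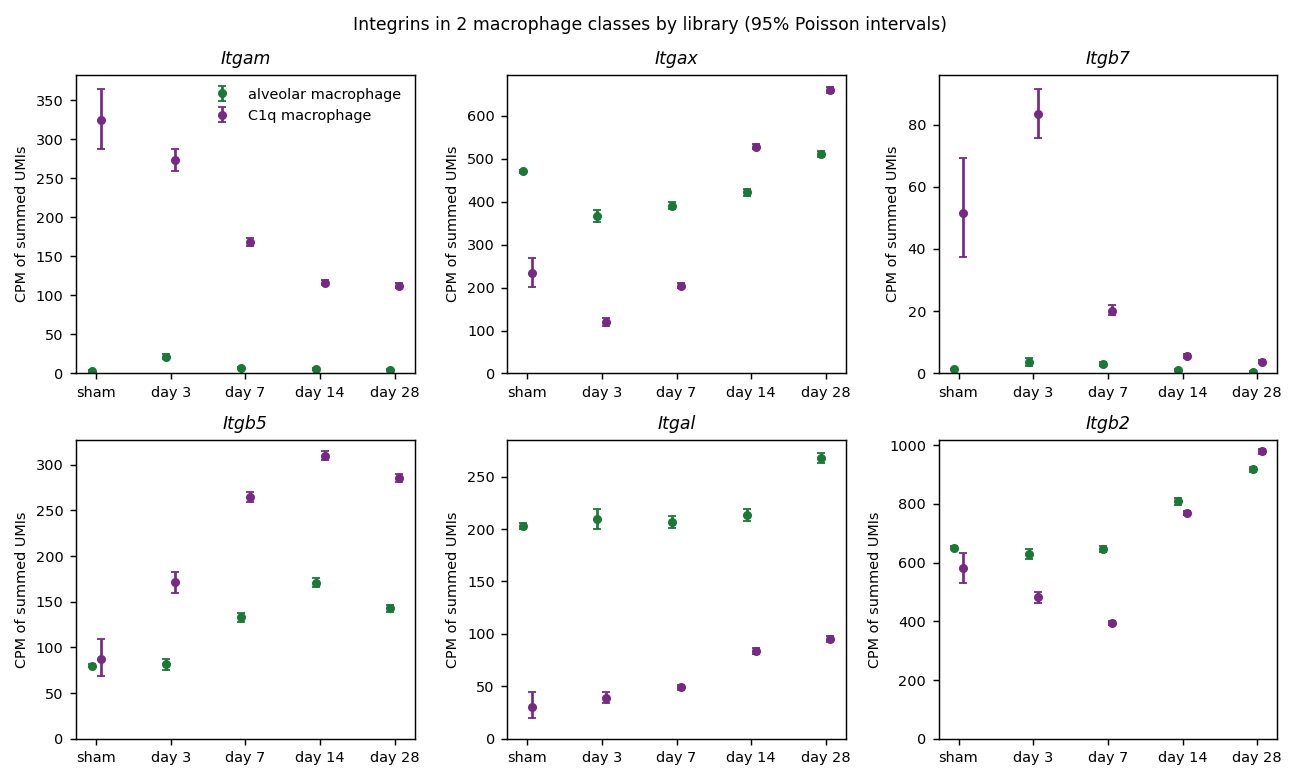
CPM of 6 members in AMs and C1q macrophages by library, with 95% Poisson intervals that cover counting error only. In C1q macrophages Itgam goes from 324 to 112 CPM and Itgb7 from 83.3 at day 3 to 3.73 CPM, while Itgax goes from 119 at day 3 to 661 CPM.

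Markers of other cell types moved with these levels. In C1q macrophages the 8 AM markers summed to 402 CPM in sham and 118, 237, 727 and 1009 on days 3, 7, 14 and 28, with none at 0. The 7 classical monocyte markers summed to 818, 2782, 407, 146 and 51.5 CPM, with none at 0. The first list was lowest at day 3 and highest at day 28, as Itgax was, and the second highest at day 3 and lowest at day 28, as Itgb7 was. Their part in the changes was not tested.

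The levels were therefore also read by the number of AM markers in a cell, among the cells classed as C1q macrophages or dual macrophages. Ly6c2 C1q macrophages, 909 cells at day 3 and 223 at day 7, were left out, as were cells that met several other gates. Itgam in these Ly6c2 C1q macrophages was 282 CPM at day 3 and 231 CPM at day 7. At day 28 Itgam was 402 CPM in the 86 cells without an AM marker, 127 with 1 to 2 markers, 81.0 with 3 to 4, 40.5 with 5 to 6 and 31.8 with 7 to 8. Day 14 gave 263, 138, 84.2, 31.9 and 7.62 CPM. Day 7 gave 161, 171, 176, 73.8 and 55.9 CPM, with no fall up to 3 to 4 markers. With 1 to 2 markers Itgam was lower in each later library, at 332 CPM in sham and 258, 171, 138 and 127 CPM on days 3, 7, 14 and 28, and with 3 to 4 markers it was 304 CPM in sham and 176, 84.2 and 81.0 CPM on days 7, 14 and 28. In the cells without an AM marker, which were 86 at day 28 and 84 at day 14, it was 288, 161, 263 and 402 CPM on days 3, 7, 14 and 28. Itgax in the cells without an AM marker was 76.7, 128, 268 and 326 CPM, higher in each later library. The cells without AM markers were shallower, with a median of 8389 UMIs at day 28 against 33814 for 7 to 8 markers, and a marker is more easily missed in them. Itgal followed the marker count at the later times, from 56.7 to 235 CPM at day 28 and from 39.3 to 177 CPM at day 7. In sham Itgal was 38.4 CPM with 1 to 2 markers and 28.7 CPM with 3 to 4. At day 3 it was 33.4 CPM without a marker and 37.7 CPM with 1 to 2. The intervals overlapped in both of these libraries.

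**Figure D4:**
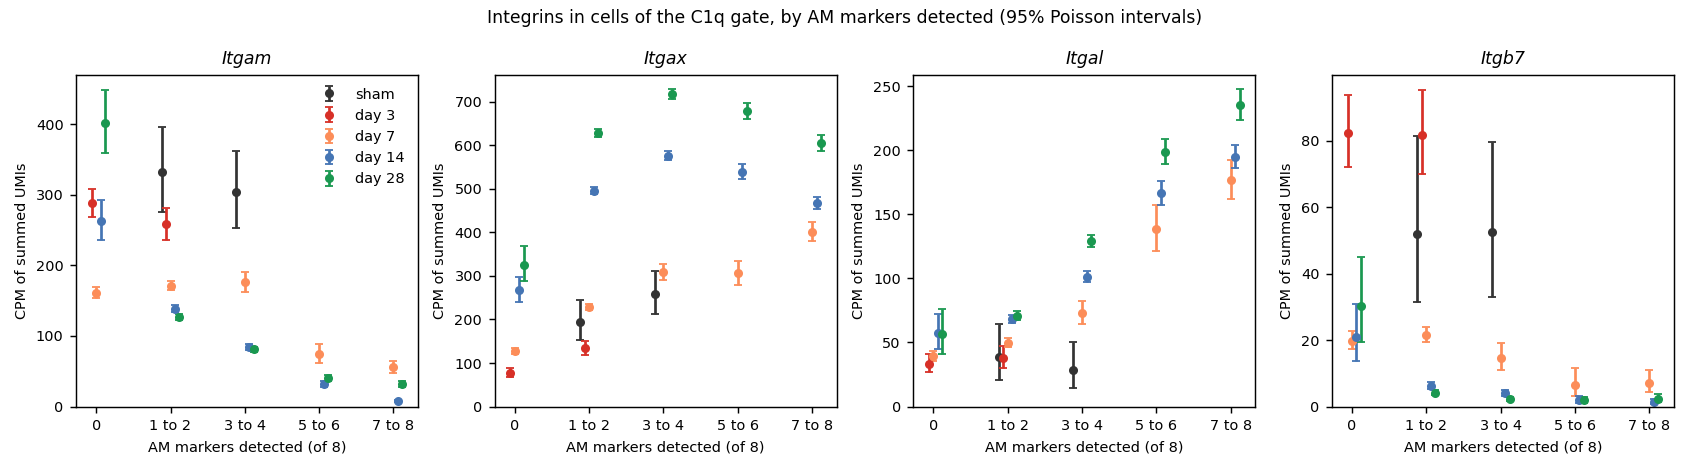
CPM of 4 members in C1q and dual macrophages, by the number of the 8 AM markers detected in the cell and by library. Intervals are 95% Poisson intervals, for groups of at least 20 cells, and Ly6c2 C1q macrophages are left out. Itgam falls and Itgal rises along the marker count within day 14 and day 28, while Itgax at 1 to 2 markers goes from 134 CPM at day 3 to 628 CPM at day 28.

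Dual macrophages lay between the classes for Itgam, with 97.7, 62.3, 18.0 and 36.7 CPM on days 3, 7, 14 and 28, all above AMs of the same library. In these 4 libraries 5 of 10 members were higher than in AMs and none lower, against 9.97% of all genes, and DESeq2 called 4 higher and 1 lower. The differences on the log2 scale were 2.62 for Itgam (SE 0.22, adjusted p = 2.29e-05, edgeR), 1.66 for Itgb7 (SE 0.33, adjusted p = 0.00757), 0.48 for Itgb5 (SE 0.06, adjusted p = 0.000526), 0.36 for Itga4 (SE 0.07, adjusted p = 0.00504) and 0.27 for Itgav (SE 0.07, adjusted p = 0.0360). Itgal, at -0.21 (SE 0.07), missed the threshold with an adjusted p of 0.0707 by edgeR, and passed it as lower by DESeq2 (adjusted p = 0.0274), with no filter on low counts (adjusted p = 0.0278) and without day 3 (adjusted p = 0.0199). Without day 7, 3 members passed, Itga4 (0.33) and Itgav (0.23) being lost, and without day 14 Itgav (0.22) was lost. Removal of predicted doublets left 15 dual cells at day 3, so that its fit held day 7, day 14 and day 28 only, and gave 3 calls, among them Itgam (2.41), against 6 in these libraries with doublets kept. Without the library block none passed (edgeR), with 1 member at an unadjusted p under 0.05, although 24 genes did in all.

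Classical monocytes and C1q macrophages, compared in sham, day 3, day 7 and day 14, overlapped in Itgam, at 191 to 293 CPM against 116 to 324 CPM, and the difference did not pass (log2 difference 0.13, SE 0.27, adjusted p = 0.823). Of 9 members tested, 5 differed, 3 higher and 2 lower in monocytes, against 10.2% of all genes (edgeR). Itga4 was 273, 110, 176 and 442 CPM in monocytes and 76.4, 48.1, 78.2 and 82.1 CPM in C1q macrophages, with no overlap (log2 difference 1.66, SE 0.22, adjusted p = 0.00436). Itgal (1.5, SE 0.24, adjusted p = 0.00853) and Itgb7 (2.16, SE 0.54, adjusted p = 0.0386) were higher, and Itgb5 (-1.44, SE 0.31, adjusted p = 0.0238) and Itgax (-2.12, SE 0.52, adjusted p = 0.0380) lower in monocytes. In the classical monocyte class the C1q markers themselves summed to 425 to 923 CPM. Itgax lost its call without sham (-1.74), day 7 (-2.61) or day 14 (-1.59), Itgb7 without sham (2.08), day 3 (2.69) or day 7 (2.43), and Itgb5 without day 7 (-1.71). In the counts this left 3 members without sham and 2 without day 7. Without the library block none passed (edgeR), with 5 at an unadjusted p under 0.05.

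Nonclassical monocytes, compared with classical ones in sham, day 3 and day 14, were higher in 6 of 9 members and lower in none, against 10.5% of all genes. The median member difference was 1.22 on the log2 scale and that of all genes -0.02. Itgal was 1322, 1091 and 1125 CPM against 161, 90.6 and 203 CPM, higher in each library (log2 difference 3.01, SE 0.31, adjusted p = 0.000256). Itgb1, the partner of Itga4, was 382, 343 and 529 CPM against 137, 123 and 199 CPM (1.41, SE 0.22, adjusted p = 0.00343). Itga4 itself was 690, 443 and 774 CPM against 273, 110 and 442 CPM (1.34, SE 0.29, adjusted p = 0.0159). Both were higher in all 3 libraries. Itgb2 (1.04, SE 0.24), Itgav (1.22, SE 0.29) and Itgax (1.82, SE 0.44) also passed, with adjusted p of 0.0226, 0.0234 and 0.0280 by edgeR. Itgam, at 274 to 346 against 191 to 293 CPM, did not (0.43, SE 0.23, adjusted p = 0.279). Without sham 2 members passed, and Itgax (1.15), Itga4 (1.38), Itgav (0.85) and Itgb2 (0.95) were lost. Without day 14 Itgax (1.61) and Itgb2 (1.00) were lost, and without the library block 2 members passed. Classes from clusters could be fitted in day 3 and day 7 only, in place of the 3 libraries above, and gave an Itgax difference of -0.67.

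Neutrophils, the first granulocytes to enter injured tissue, differed from classical monocytes in 5 of 9 members over sham, day 3, day 7 and day 14, 3 higher and 2 lower, against 33.5% of all genes. Their median depth was 2731 UMIs, against 11539 in classical monocytes. Itgam was 368, 303, 190 and 484 CPM in neutrophils and 191, 204, 216 and 293 CPM in monocytes, higher in all but day 7 (log2 difference 1.11, SE 0.36, adjusted p = 0.0381, edgeR). The second Itgam identifier held 16.7% of the Itgam UMIs in neutrophils and 3.04% in classical monocytes. Its part in this difference was not tested. Itgal, at 359, 308, 179 and 371 against 161, 90.6, 115 and 203 CPM, was higher in all 4 (1.70, SE 0.37, adjusted p = 0.00628). Itgax was higher (1.83, SE 0.41, adjusted p = 0.00784), with AM markers at 114 to 543 CPM in neutrophils and 58.2 to 177 CPM in monocytes beside it. It was -0.34 with classes from clusters, a fit of day 3 and day 7 only. Itgb7 (-1.62, SE 0.34, adjusted p = 0.00584) and Itgb5 (-1.46, SE 0.41, adjusted p = 0.0204) were lower in neutrophils. Itgam lost its call without sham (0.93), day 3 (0.96) or day 14 (0.98), and Itgb5 without sham (-1.43) or day 3 (-1.02), which left 3 members without sham and 3 without day 3. Both also lost their call (0.81 and -1.02) when the day 7 floor of 4624 UMIs was applied to every library, a floor above the neutrophil median, and day 7 held 65 neutrophils.

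The DC types differed in 7 of 10 members over the 4 libraries other than day 3, 5 higher and 2 lower in cDC1, against 20.7% of all genes. cDC1 present antigen of dead cells to CD8 T cells, and cDC2 mainly serve CD4 T cells. Itgam was 2.91, 4.45, 3.56 and 11.1 CPM in cDC1 and 165, 58.7, 133 and 126 CPM in cDC2 of sham, day 7, day 14 and day 28 (log2 difference -4.20, SE 0.26, adjusted p = 5.97e-07, edgeR). Itgae ran opposite, at 354, 536, 548 and 420 CPM in cDC1 and 5.44, 89.4, 83.4 and 96.4 CPM in cDC2 (3.02, SE 0.33, adjusted p = 3.66e-05). The ranges of both genes were far apart. The sham cDC2 were the exception for Itgae, since their level lay far below that after bleomycin, in 45 cells. In this class (conventional DC type 2) the markers of conventional DC type 1 summed to 710.3 CPM in sham and 417, 609 and 489 CPM at the later times. Flt3 is a marker in both lists, so that this sum does not measure cDC1 alone. The part of cDC1 in the cDC2 levels of Itgae was not tested. Itgb7, the partner of Itgae, was 363, 156, 237 and 196 CPM against 233, 100, 158 and 124 CPM (0.76, SE 0.12, adjusted p = 0.000478).

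Itgal (1.49, SE 0.25, adjusted p = 0.000964), Itgav (0.76, SE 0.18, adjusted p = 0.00791) and Itgb2 (0.50, SE 0.12, adjusted p = 0.00828) were also higher in cDC1, and Itgax lower (-0.84, SE 0.14, adjusted p = 0.000785), by edgeR. Itgax was 112 to 204 CPM in cDC1 and 212 to 341 CPM in cDC2, without overlap. Itgal was 75.7, 64.5, 75.6 and 71.8 CPM in cDC1 and 68.0, 19.6, 19.0 and 19.8 CPM in cDC2, so that in sham the DC types were close. Itgav lost its call without day 14 (0.69), and Itgb7 with classes from clusters (0.29). Without the library block Itgb2 (0.52) and Itgb7 (0.76) lost theirs and 5 members passed.

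Tregs were T cells with a Foxp3 UMI and no UMI of a CD8 marker. A Cd4 UMI, needed for conventional CD4 T cells, was not needed for Tregs. Tregs differed from conventional CD4 T cells in 5 of 9 members over 5 libraries, 3 higher and 2 lower, against 11.7% of all genes. Itgae was 191, 93.8, 153, 128 and 88.1 CPM in Tregs and 0, 6.69, 23.4, 15.9 and 12.8 CPM in conventional CD4 T cells (log2 difference 3.08, SE 0.27, adjusted p = 1.53e-09, edgeR). Itgav was 248, 146, 289, 353 and 316 CPM against 13.8, 24.8, 61.7, 28.3 and 23.8 CPM (2.87, SE 0.20, adjusted p = 5.5e-12). In both genes every Treg value lay above every conventional value. Itgb7 was higher by 0.70 (SE 0.13, adjusted p = 0.000253), whereas Itgb1 (-0.64, SE 0.19, adjusted p = 0.0217) and Itga4 (-0.50, SE 0.16, adjusted p = 0.0411) were lower, although Itgb1 was higher in Tregs in 2 of 5 libraries, sham (698 against 437 CPM, 21 Tregs) and day 28 (316 against 216 CPM). Itga4 lost its call without sham (-0.38), day 3 (-0.38), day 7 (-0.57) or day 14 (-0.50), and Itgb1 without day 7 (-0.33) or day 14 (-0.50), leaving 3 members each without day 7 and without day 14, and 2 passed without the library block.

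CD8 T cells differed from conventional CD4 T cells in Itgae alone of 10 members, against 7.72% of all genes. Itgae was 32.7, 23.6, 18.0, 31.7 and 54.1 CPM in CD8 T cells, higher than in conventional CD4 T cells in all libraries but day 7 (log2 difference 1.39, SE 0.34, adjusted p = 0.0180, edgeR). The call was lost without day 3 (1.30), day 14 (1.54) or day 28 (1.14), where no member passed by edgeR and 3, 4 and 5 members were at an unadjusted p under 0.05, and without day 7 there were 2 calls. DESeq2 on all libraries called none, with 3 members at an unadjusted p under 0.05. Itgb7, at -0.30 (SE 0.09, adjusted p = 0.0545), came next. Gamma delta T cells combined Itgae at 93.9, 139, 123, 327 and 237 CPM and Itgb7 at 795, 452, 224, 413 and 290 CPM with little Itga4, at 6.26, 55.2, 74.2, 57.4 and 31.6 CPM. Conventional CD4 T cells held 213 to 299 CPM of Itga4, so that the ranges did not touch. This pair of classes was not among the tests.

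Shares of cells with a UMI, each cell reduced to 2000 UMIs, were read beside these levels. Itgal was found in 89.5% of 411 nonclassical monocytes (exact 95% interval 86.2 to 92.3) and 8.14% of 1720 B cells. Itgae was found in 58.9% of 455 cDC1 (54.2 to 63.5) and 0.233% of B cells, and Itgax in 56.9% of 10573 AMs (55.9 to 57.8) and 4.42% of B cells. Before the reduction these shares were 98.1%, 96.5% and 97.4% in the leading classes, whose median depths were 5395, 16347 and 17455 UMIs, against 4869 in B cells. Over all libraries, Itgam was found in 0.899% of AMs (0.728 to 1.10) and 1.51% of B cells (0.990 to 2.21). The part of background in the AM share was not tested. By library, the AM share was 3.52% at day 3 (2.13 to 5.44) and 1.04% in B cells of that day (0.421 to 2.14), whose intervals overlap slightly.

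A list of 17 other integrin subunits was read in the same way. Between AMs and C1q macrophages, 2 of 11 tested were higher and 4 lower in AMs, against 38.5% of all genes, among them Itga9 (-4.51, SE 0.76, adjusted p = 0.00305), Itga6 (-2.36, SE 0.24, adjusted p = 0.000323) and Itgad (1.98, SE 0.49, adjusted p = 0.0162), on the log2 scale by edgeR. Itga6, a laminin receptor subunit, was 161, 85.4, 87.3, 95.5 and 85.1 CPM in C1q macrophages and 8.88 to 34.7 CPM in AMs, while Itgad stayed at 2.54 CPM or less in both. Itgb8, which pairs with Itgav and serves in the activation of latent TGF-β, was higher in Tregs than in conventional CD4 T cells (3.58, SE 0.55, adjusted p = 2.79e-05), at 0, 17.4, 45.6, 74.2 and 29.4 CPM in Tregs against 0 to 7.64 CPM. It was the 1 of 4 other subunits tested that passed there, against 11.7% of all genes. Lrrc32, which encodes the TGF-β carrier GARP, was 4.43 higher in Tregs (SE 0.47, adjusted p = 4.6e-08), at 15.2 to 124 CPM against 0 to 4.78 CPM. Itgb3 was lower in CD8 than in conventional CD4 T cells (-2.51, SE 0.23, adjusted p = 2.56e-06), at 3.45 to 8.31 against 17.0 to 38.0 CPM. Itgb2l, a relative of Itgb2, was 5.79 to 74.3 CPM in neutrophils, and 0 UMIs were found in classical monocytes, where 3 UMIs would have been 0.248 to 13.5 CPM.

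Of the 22 genes of integrin activation and cytoskeletal linkage, 21 were tested between AMs and C1q macrophages, with 5 higher and 9 lower in AMs, against 38.5% of all genes. Fyb, an adaptor that couples Skap proteins to integrins, was -5.01 (SE 0.29, adjusted p = 4.41e-05), at 1.82 to 7.81 CPM in AMs and 102 to 281 CPM in C1q macrophages. Vcl, which encodes vinculin, was lower too (-2.49, SE 0.18, adjusted p = 8.88e-05), and Cytip, a regulator of cytohesin, higher (2.20, SE 0.24, adjusted p = 0.000483). Dual macrophages were higher than AMs in Fyb (2.63, SE 0.19, adjusted p = 9.31e-06) and Vcl (1.35, SE 0.17, adjusted p = 0.000523) and lower in Cytip (-0.49, SE 0.08, adjusted p = 0.00199). In classical monocytes 5 of 19 were higher than in C1q macrophages and none lower, against 10.2% of all genes, led by Cytip (2.53, SE 0.26, adjusted p = 0.00193) and Rasgrp2 (2.26, SE 0.34, adjusted p = 0.00646), the exchange factor for Rap1. Nonclassical monocytes had 5 higher and 1 lower of 18 against classical ones, where 10.5% of all genes passed, with Rasgrp2 again among the higher (1.71, SE 0.33, adjusted p = 0.00891), whereas Tregs were lower in Rasgrp2 than conventional CD4 T cells (-1.39, SE 0.19, adjusted p = 4.72e-06).

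Of the 20 ligand genes, 13 were tested between AMs and C1q macrophages, with 1 higher and 5 lower in AMs, against 38.5% of all genes, and a median of -1.13. Icam2, a ligand of Itgal integrin, was lower (-4.51, SE 0.44, adjusted p = 0.000285), as was Vcam1, the ligand of Itga4 integrins (-4.08, SE 0.72, adjusted p = 0.00370). Vcam1 was 32.9, 24.2, 18.8, 4.25 and 6.32 CPM in C1q macrophages and 0.222 to 1.18 CPM in AMs. Mfge8, a bridge between dying cells and Itgav integrins, was higher in dual macrophages than in AMs (1.95, SE 0.25, adjusted p = 0.000613) and lower in classical monocytes than in C1q macrophages (-2.73, SE 0.38, adjusted p = 0.00504). Fn1, fibronectin, was lower in nonclassical than in classical monocytes (-4.11, SE 0.40, adjusted p = 0.000177).

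The genes with the most similar pattern over the 92 sums of class and library, among 8776 genes at 50 CPM or more in any sum, were named for each member by Pearson r of log2(CPM + 10). Myo1f (0.91), Cyth4 (0.87) and Laptm5 (0.86) were nearest to Itgb2, and Stk10 (0.89), Rassf5 (0.87) and Bin2 (0.83) to Itgal. Cd300a (0.86) and Slc11a1 (0.84) were among the nearest to Itgam, and Tbxas1 (0.84), Sh2d1b1 (0.83) and Mrc1 (0.82) to Itgax. Ptpn18 (0.88), Traf3ip3 (0.87) and Sept6 (0.86) were nearest to Itgb7, Lrp1 (0.86), Ctsb (0.86) and Rab1a (0.84) to Itgb5, and Stk4 (0.82), Btg1 (0.81) and Cytip (0.80) to Itga4. Itgae (F2rl2 at 0.73 and Prelid2 at 0.68 among them), Itgav (Lclat1 at 0.74, Slc26a2 at 0.65 and Hacd3 at 0.64) and Itgb1 (Csnk1a1 at 0.68, Sptan1 at 0.67 and Dnajc1 at 0.65) had less close neighbours.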

How the data were processed

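Cells of 5 mouse lung libraries were counted with the 10X Single-Cell 3′ kit. The authors aligned reads with Cell Ranger 6.0.0 to an mm10 reference. What the authors deposited are UMI counts, not normalized and from before their cell filters. The cell limits were the study's own, namely between 300 and 8000 genes, between 800 and 60000 UMIs, and a mitochondrial share below 15%. Integrins and lists were chosen with earlier results of these data known, and gate limits and the handling of cells in several gates after the cells had been seen. Doublets were kept in the main results and removed in an alternative (the highest Scrublet scores, 0.8% per 1000 barcodes), because the study's doublet package was not used here.

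Counts were summed per class and library with at least 20 cells of the class. Classes were compared with edgeR 4.0.16 (quasi-likelihood, TMM, filterByExpr, library as a block, gate markers left out, R 4.3.3), the threshold being an adjusted p of 0.05. Libraries are time points, so that the residual spread is how far a class difference varied between them. SEs were taken from the fold change and its F value. Named genes were the 10 members, at most the 3 largest called changes of each other list per comparison, and the 3 most similar genes of each member. A few genes that this rule or a gate holds are not reported here. Each integrin position came from GENCODE of GRCm38. Scanpy 1.11.5, leidenalg 0.10.2 and DESeq2 1.42.0 served the alternatives (DESeq2, no filter on low counts, no block, 1 library left out, a mitochondrial limit of 10%, the day 7 UMI floor, classes from clusters, mean CPM per cell, other thinning). The 95% intervals cover counting error only.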

Additional observations from a re-analysis of the deposited data

Results flagged for a closer look

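The ratio of Itgam to sham was above 1 in AMs and below 1 in C1q macrophages in all 4 bleomycin libraries. The counting intervals left out 1. Relative to sham it was 5.81, 1.85, 1.63 and 1.24 in AMs at day 3, day 7, day 14 and day 28, and 0.843, 0.519, 0.358 and 0.347 in C1q macrophages. This difference between the classes was not tested, since each time point has 1 library and all ratios of a class share its sham library. The AM levels behind these ratios were 3.65, 21.2, 6.76, 5.94 and 4.54 CPM in sham and on days 3, 7, 14 and 28. B cells of the same libraries held 6.0, 10.8, 25.2, 8.82 and 9.38 CPM. AMs were above B cells at day 3 only and below them in the other libraries. B cells were also above their sham level in each bleomycin library, although their sham interval overlapped those of days 3, 14 and 28. The part of background in the AM ratios was not tested. In AMs the 7 classical monocyte markers summed to 11.3 CPM in sham, 144, 24.4, 17.5 and 9.77 on days 3, 7, 14 and 28, with none at 0, and their part in the AM ratios was not tested.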

How the results depend on the processing

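Of 40 member differences past the threshold between classes, recomputed in 441 alternatives, 362 kept direction and call, 77 lost the call and 2 turned. The 2 were Itgax with classes from clusters, at -0.67 in nonclassical and -0.34 in neutrophils against classical monocytes. These cluster fits, and that of classical monocytes against C1q macrophages, held day 3 and day 7 only, so that class and library set changed together, as they did for dual macrophages without doublets (no day 3). Of 15 member differences from sham (the 14 of the report and Itgam in day 3 AMs, below 50 CPM) in 75 alternatives, 58 stayed within their interval, 16 moved and Itgb1 in day 3 C1q macrophages turned to 0.14 under clusters. The shares of cells with a UMI, 56.9% (Itgax in AMs), 20.7% (Itgam in C1q macrophages), 58.9% (Itgae in cDC1) and 89.5% (Itgal in nonclassical monocytes), moved to 34.8%, 11.3%, 39.1% and 68.0% at 1000 UMIs and to 97.4%, 65.7%, 96.5% and 98.1% without thinning. Members past the threshold, without the library block, were 0 for dual macrophages, 0 for classical monocytes against C1q macrophages, 2 for nonclassical monocytes, 0 for CD8 T cells and 2 for Tregs. Beside these counts of 0, edgeR gave 1, 5 and 1 members at an unadjusted p under 0.05 for dual macrophages, classical monocytes and CD8 T cells. With clusters they were 2, 3, 2 and 2 for classical monocytes against C1q macrophages, nonclassical monocytes, neutrophils and CD8 T cells. DESeq2 gave 0 for CD8 T cells and 3 for Tregs, removal of doublets 3 for dual macrophages and 3 for Tregs, and the day 7 UMI floor 3 for neutrophils. With 1 library left out they ranged from 3 to 6 (dual), 2 to 4 (classical against C1q), 2 to 8 (nonclassical), 3 to 7 (neutrophils), 0 to 2 (CD8) and 3 to 5 (Tregs). Over all genes, calls without the block were 3079 (AMs), 24 (dual), 168 (classical against C1q), 203 (nonclassical), 774 (cDC1), 106 (CD8) and 264 (Tregs). DESeq2 called 494 (nonclassical), 374 (CD8) and 594 (Tregs), no filter on low counts 1852 (classical against C1q) and 1251 (nonclassical), clusters 458 (nonclassical) and 1969 (neutrophils), removal of doublets 737 (dual) and the UMI floor 1483 (neutrophils). With 1 library left out they ranged from 625 to 1325 (dual), 326 to 727 (classical against C1q), 427 to 1055 (nonclassical), 1220 to 4281 (neutrophils), 1045 to 1798 (cDC1) and 432 to 751 (CD8). The cause was not tested, except that fewer libraries or genes enter where some are left out. Clusters gave no value for dual macrophages, since no cluster held them. No paired analysis was possible because each time point has 1 library, and the library block pairs classes instead.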

Other observations

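The class group 2 innate lymphoid cell reached 20 cells in sham (32 cells) and day 14 (23 cells). The day 14 cells held 553 CPM of Itgax and 615 CPM of Itgb2, against 36.9 and 178 CPM in sham. C1q macrophage markers summed to 2549.8 CPM in these day 14 cells and to 197 CPM in sham, with 5 and 2 of the 7 markers at 10 CPM or more. For this reason the class was left out of the statements on leading classes above.

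Outside the leukocytes, endothelial cells held a median of 299 CPM of Itga6, 164 CPM of Itga1 and 146 CPM of Itga3 over 3 libraries. Epithelial cells held a median of 99.0 CPM of Itga3, 91.4 CPM of Itgb6 and 45.9 CPM of Itgb4 over 4 libraries. NK cells held 23.1 to 54.9 CPM of Itga2, which encodes the CD49b antigen. These genes were chosen after their values had been seen.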
